A study of Rattus norvegicus with 20 samples.

Results

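The genes described here are the chemokines and chemokine receptors measured in rat kidney microvessels, other than Ccl2 and the genes closest to it. They were taken from the deposited table by name: every symbol of the Ccl, Cxcl, Cx3cl and Xcl ligands, the Ccr, Cxcr, Cx3cr and Xcr receptors and the atypical Ackr receptors. Of 49 symbols of this family, 7 were set aside, among them Ccl2, Ccl7, Ccl21, Ccr2, Ackr2 and Cxcl14. That left 42 of the 16672 rows of the table, and no measured level was used to choose them. They comprise 25 ligands, 14 signalling receptors and 3 atypical receptors, and 41 of them passed the filter on low values. The 1 that did not pass was Ccr4, a receptor of T cells.

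All rats were male Dahl salt-sensitive (SS) rats, a strain in which dietary salt leads to hypertension and kidney injury. They were either SS, or SS labelled as null for Ccl2 on both alleles (SS Ccl2-/-), and ate chow with 0.3% or 4.0% NaCl for 2 weeks. Each of the 4 groups had 5 rats. The labels read here give no age, nor how the null allele was made. The microvessels were dissected from excised kidneys, so each library is a mixture of all cells that came with the vessels.

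Chemokines are small secreted proteins that guide leukocytes by binding G protein-coupled receptors on their surface. A ligand often binds several receptors, and a receptor often several ligands. The atypical receptors bind chemokines without signalling through G proteins, and carry or remove them. In the salt-loaded SS rat kidney, infiltration by T cells and macrophages is well known.

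The libraries held 22000000 to 47900000 reads. The targeted gene checks the genotype labels first. Ccl2 had a normalized count of 124 to 218 in the 5 low-salt rats labelled null and 138 to 212 in SS rats on the same diet, so its level did not separate those groups. On high salt it was 77.5 to 128 in rats labelled null and 167 to 426 in SS rats, with no overlap (log2 difference -1.46 ± 0.22, adjusted p = 4.73e-04). Transcripts of a disrupted gene may persist, and each genotype difference below rests on the labels. All 8 markers of blood endothelium and all 10 of smooth muscle and mural cells were above 0 in every library, and so were all 9 of proximal tubule. Mitochondrially encoded transcripts made up 22.6% to 42.5% of the recovered reads for SS low-salt rats and 6.9% to 20.4% for SS high-salt rats. SS high-salt rat 1 and null low-salt rat 4 stood apart from their groups over all genes, and counts without both are given below.

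High salt against low salt in SS rats was the comparison with the largest count of changed members. Of 41 members 12 rose and 0 fell by limma, against 9.52% of all tested genes that rose and 7.73% that fell. At an unadjusted p under 0.05 there were 15 higher and 0 lower. The share of all genes at that unadjusted p was not counted in any comparison. On recovered reads edgeR and DESeq2 gave 12 and 14 members higher and 0 lower, beside 1637 and 1818 of all genes higher. The 12 are 29.3% of the members. The median difference over the 41 was 0.29 on the log2 scale, against -0.0039 over all genes, and 34 members were above 0. By role, 7 of 13 tested signalling receptors rose, among them 4 of 6 CC receptors and 3 of 5 CXC receptors. Of the 25 ligands 4 rose, and of the 3 atypical receptors 1. In bulk tissue, more cells of a type and more RNA per cell cannot be told apart.

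**Figure D1:**
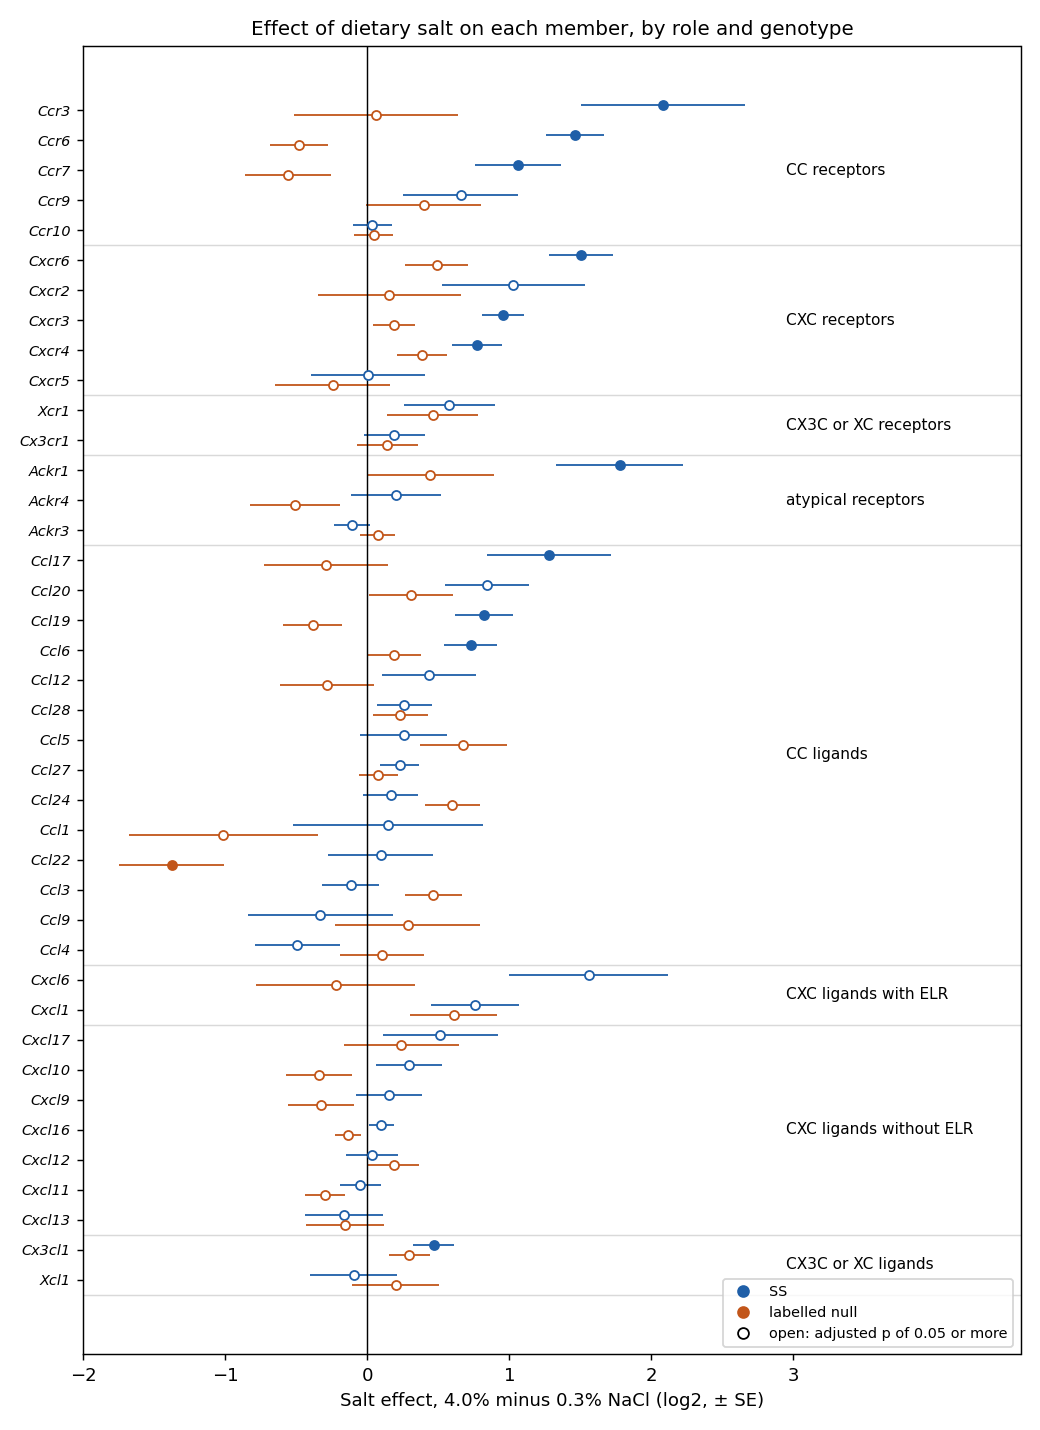
Difference between 4.0% and 0.3% NaCl for each of 40 members, on the log2(normalized count + 1) scale with its standard error, in SS rats (blue) and rats labelled null (orange). Filled points have an adjusted p under 0.05. The 11 filled blue points all lie to the right of 0, and the 1 filled orange point is Ccl22.

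The smallest p-values belonged to receptors best known from T cells. Ccr6, the receptor of Ccl20 that marks Th17 and other memory T cells and many B cells, had 30.3, 41.3, 43.5, 61.2 and 47.9 normalized counts in SS rats 1 to 5 on low salt. On high salt the SS rats had 139, 137, 145, 113 and 88.4. Every high-salt rat was above every low-salt rat. The share of all genes whose groups lacked overlap was not counted in any comparison. The log2 difference was 1.47 ± 0.20 (adjusted p = 7.38e-05). Ccr6, like Ccr7 below, overlaps a non-coding gene in the RefSeq annotation of GRCr8, and reads of the overlap cannot be told apart.

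Cxcr6, the receptor of Cxcl16 on effector and tissue-resident T cells, stood at 78.8, 47.6, 75.0, 128 and 106 on low salt. It stood at 264, 329, 203, 250 and 165 on high salt, again without overlap. It rose by 1.504 ± 0.224 (adjusted p = 1.42e-04). Cxcr6 overlaps Fyco1, an autophagy adaptor gene, and how strand was used in counting is not stated in the labels. Fyco1 differed by -0.19 ± 0.19 in the same comparison (adjusted p = 0.519). Cxcr3, the receptor of the interferon-induced ligands on Th1 and cytotoxic T cells, had 93.3, 71.4, 80.4, 114 and 102 on low salt and 169, 232, 147, 199 and 154 on high salt. Its groups did not overlap, and it rose by 0.96 ± 0.15 (adjusted p = 2.06e-04). Leaving out any 1 rat ended none of these 3 calls.

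Among the other receptors, Ccr7 guides naive T cells and mature dendritic cells to lymphoid tissue. It had 15.8, 27.0, 40.2, 42.2 and 42.0 normalized counts in SS rats on low salt and 97.6, 73.6, 70.7, 55.5 and 46.1 on high salt. The groups did not overlap, and the difference was 1.06 ± 0.30 (adjusted p = 0.0191), though without SS low-salt rat 1 it was no longer called (adjusted p = 0.0616). Cxcr4, the receptor of Cxcl12 on most leukocytes, had 326, 241, 276, 330 and 325 on low salt and 556, 518, 692, 614 and 277 on high salt. High-salt rat 5 lay within the low-salt range, and the other 4 lay above it. The difference was 0.77 ± 0.18 (adjusted p = 0.00439).

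Ccr3, the eotaxin receptor of eosinophils and other cells, was rare. Its 8.49, 0, 5.43, 5.28 and 6.72 normalized counts on low salt stood for 0 to 8 reads a library, and its 38.1, 38.3, 20.1, 11.4 and 8.97 on high salt for 7 to 49. The groups did not overlap, and rats 1 and 2 were highest. It rose by 2.08 ± 0.58 (adjusted p = 0.016), a size that depends on the pseudocount and was 1.17 with a pseudocount of 8. A fit of the compared groups alone did not call it (adjusted p = 0.0505). In the RefSeq annotation of GRCr8 it overlaps a similar gene, Ccr1l1, so its reads are uncertain between them.

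**Figure D2:**
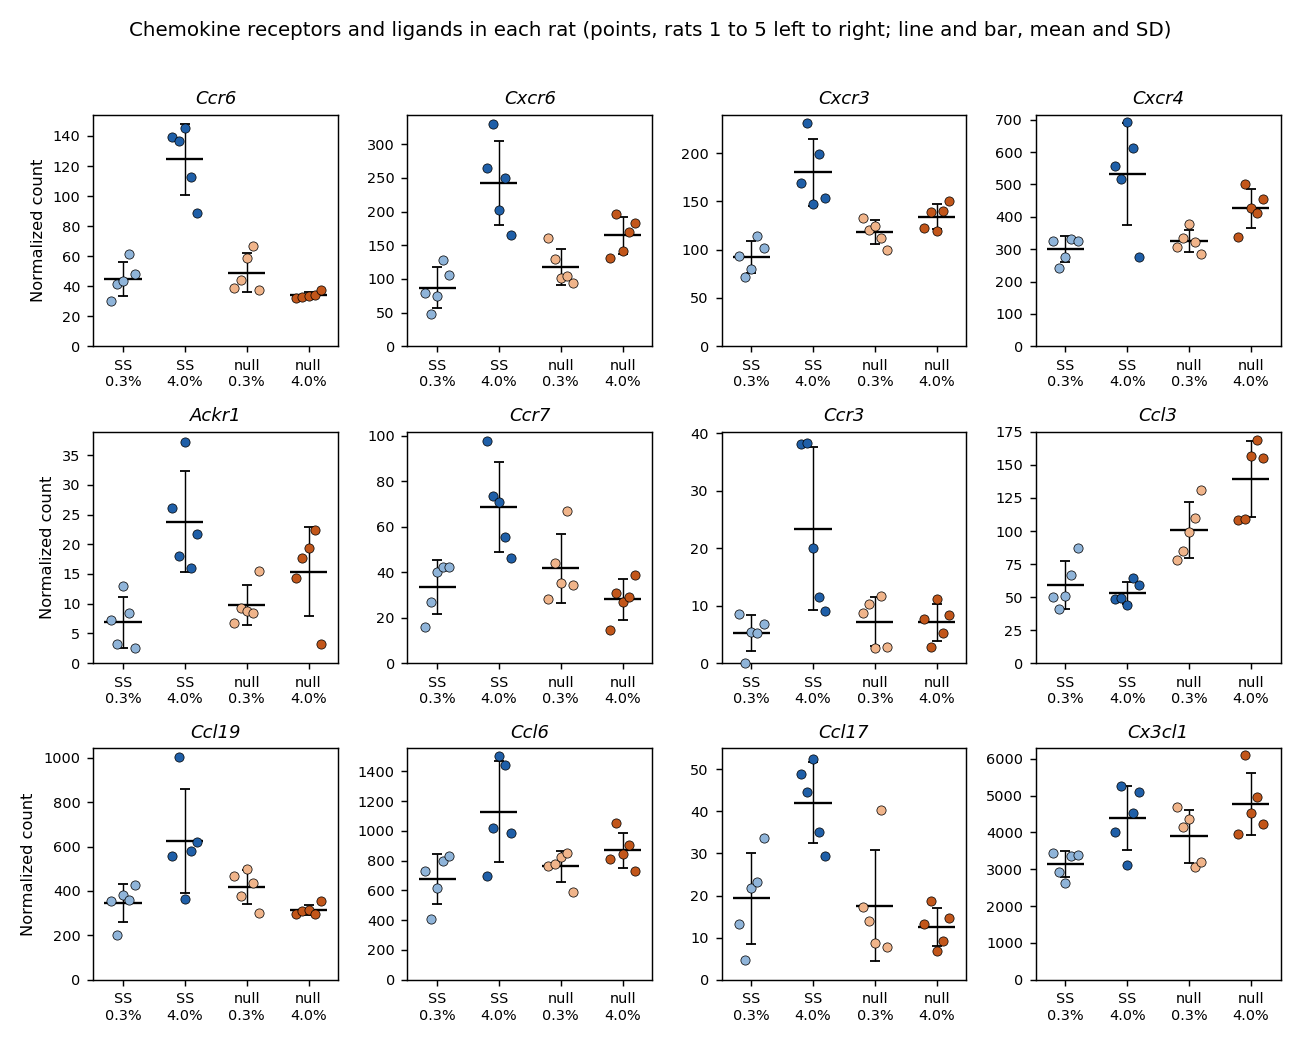
Normalized counts of the 12 members with the smallest adjusted p in any comparison, in SS and null-labelled rats on 0.3% and 4.0% NaCl. Each point is a rat, the line is the group mean and the bar its SD (n = 5). For Ccr6, Cxcr6, Cxcr3, Ccr7, Ccr3 and Ackr1 all 5 SS rats on high salt lie above all 5 on low salt, while Ccl3 is highest in the null-labelled groups. These members were picked by adjusted p, and how many of all genes separate in this way was not counted.

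The promoters of the receptors Ccr6, Cxcr6, Cxcr3 and Ccr3 and of the ligand Ccl19 are shown as examples of members that rose with salt in SS rats. Each runs 5′ to 3′ along the gene's strand from 250 bases before to 50 bases after its start, from RefSeq on GRCr8, which is not the build of the counts. The windows are chr1:55046079-55046378 (minus strand) for Ccr6, chr8:132314956-132315255 (plus) for Cxcr6, chrX:70886895-70887194 (minus) for Cxcr3, chr8:132499999-132500298 (plus) for Ccr3 and chr5:61761115-61761414 (minus) for Ccl19. Capitals mark matches on either strand to the NF-kB consensus, to the interferon-regulatory-factor element GAAANNGAAA or to the AP-1 motif TGANTCA.
Ccr6: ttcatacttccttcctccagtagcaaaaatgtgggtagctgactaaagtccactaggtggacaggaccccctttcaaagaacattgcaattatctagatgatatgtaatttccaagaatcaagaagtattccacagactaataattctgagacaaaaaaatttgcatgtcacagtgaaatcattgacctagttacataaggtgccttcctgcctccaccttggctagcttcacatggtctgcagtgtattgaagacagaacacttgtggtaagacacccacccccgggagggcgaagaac
Cxcr6: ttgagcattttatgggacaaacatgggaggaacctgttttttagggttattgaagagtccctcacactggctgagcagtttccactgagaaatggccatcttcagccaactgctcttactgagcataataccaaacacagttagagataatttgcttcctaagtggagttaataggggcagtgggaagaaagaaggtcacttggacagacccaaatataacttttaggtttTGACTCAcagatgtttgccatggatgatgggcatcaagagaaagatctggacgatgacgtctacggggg
Cxcr3: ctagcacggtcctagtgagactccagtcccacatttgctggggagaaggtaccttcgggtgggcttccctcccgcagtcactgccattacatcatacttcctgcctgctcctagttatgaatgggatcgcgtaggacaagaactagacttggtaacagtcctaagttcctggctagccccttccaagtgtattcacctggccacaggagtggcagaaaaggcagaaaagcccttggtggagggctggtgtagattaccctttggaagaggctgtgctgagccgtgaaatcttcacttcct
Ccr3: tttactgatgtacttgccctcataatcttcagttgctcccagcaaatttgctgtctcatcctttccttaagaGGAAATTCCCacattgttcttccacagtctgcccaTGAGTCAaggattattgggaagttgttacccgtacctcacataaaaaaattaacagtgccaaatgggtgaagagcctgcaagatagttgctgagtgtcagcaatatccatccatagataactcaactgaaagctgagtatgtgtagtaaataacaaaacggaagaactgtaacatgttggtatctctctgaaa
Ccl19: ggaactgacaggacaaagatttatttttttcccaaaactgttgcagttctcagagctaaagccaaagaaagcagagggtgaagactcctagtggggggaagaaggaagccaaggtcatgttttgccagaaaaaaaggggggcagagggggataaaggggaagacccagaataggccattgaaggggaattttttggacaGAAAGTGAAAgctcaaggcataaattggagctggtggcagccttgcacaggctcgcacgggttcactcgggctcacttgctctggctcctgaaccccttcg

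Counting the first base of the gene as 0, Ccl19 held the interferon element at -51 to -42, and Cxcr6 an AP-1 match at -19 to -13. Ccr3 held an NF-kB match at -178 to -169 and an AP-1 match at -143 to -137. The Ccr6 and Cxcr3 windows held none of the 3. Nor did the windows, not shown, of Cxcr4, Ccl6, Cx3cl1 and Ccl17, which also rose. Promoters were in the RefSeq table for 32 of the 42 members. Of these 7 held the NF-kB consensus (21.9%, against 7.51% of 33469 promoters), 2 the interferon element (6.25% against 3.92%) and 5 the AP-1 motif (15.6% against 7.33%). Other motifs searched, not marked above, were TATAAA (31.25% against 14.22%), the STAT element TTCNNNGAA (15.62% against 8.87%) and the E-box CANNTG (71.88% against 72.1%). Ccr6 and Ccl17 were among the members with the STAT element. Apart from Ccr3, the members with an NF-kB match were ligands, namely Ccl20, Ccl9, Cxcl1, Cxcl6, Cxcl10 and Cxcl11, and limma called none of these 6 ligands in any of the 5 comparisons. The count tests called Ccl20 and Cxcl6, as given below.

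Among ligands, Ccl19, the Ccr7 ligand of lymphoid stroma, had 354, 202, 383, 360 and 426 normalized counts in SS rats on low salt and 556, 1002, 362, 582 and 619 on high salt. Rat 3 on high salt lay within the low-salt range. The difference was 0.82 ± 0.21 (adjusted p = 0.00853), so both partners of the Ccl19 and Ccr7 pair rose. Ccl17, a ligand of Ccr4 from dendritic cells, had 13.3, 4.76, 21.7, 23.2 and 33.6 on low salt and 48.8, 44.6, 52.5, 35.0 and 29.5 on high salt. It rose by 1.28 ± 0.44 with an adjusted p = 0.0455 close to the threshold. This call was lost without each of SS low-salt rats 1 to 3, SS high-salt rats 1 to 4, null low-salt rats 1 and 2 and null high-salt rats 1, 4 and 5 (adjusted p = 0.0511 to 0.139).

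Ccl6, a rodent chemokine of macrophages and other myeloid cells, had 732, 410, 615, 794 and 830 on low salt and 699, 1021, 1499, 1445 and 984 on high salt. High-salt rat 1 lay within the low-salt range. The rise was 0.73 ± 0.19 (adjusted p = 0.0101), and a fit of the compared groups alone did not call it (adjusted p = 0.0503). Cx3cl1, or fractalkine, a membrane-bound ligand of endothelial and epithelial cells, had 3445, 2921, 2630, 3352 and 3388 on low salt and 4008, 5254, 3118, 4521 and 5104 on high salt. It rose by 0.47 ± 0.14 (adjusted p = 0.0274), with high-salt rat 3 inside the low-salt range. The Cx3cl1 call was lost without each of SS low-salt rats 2 and 3 and SS high-salt rats 2, 4 and 5 (adjusted p = 0.054 to 0.0795).

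Ackr1, an atypical receptor of venular endothelium and red cells that carries many inflammatory chemokines, had 7.27, 3.18, 13.04, 8.44 and 2.52 on low salt and 26.2, 18.0, 37.3, 15.98 and 21.8 on high salt. The groups did not overlap. It rose by 1.78 ± 0.45 (adjusted p = 0.00871), on 2 to 12 reads a library on low salt and 17 to 39 on high salt, and by 1.11 with a pseudocount of 8. The scavengers Ackr3 (-0.11 ± 0.12) and Ackr4 (0.20 ± 0.32) did not pass.

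The ligands of the receptors that rose did not in general pass the test. Cxcl16, the partner of Cxcr6, differed by 0.10 ± 0.09 (adjusted p = 0.489). The Cxcr3 ligands Cxcl9, Cxcl10 and Cxcl11, known as interferon targets, differed by 0.15, 0.29 and -0.05 (adjusted p = 0.705, 0.42 and 0.854). Cxcl12, the partner of Cxcr4, differed by 0.03 (adjusted p = 0.926). Ccl24, an eotaxin that binds Ccr3, differed by 0.17 (adjusted p = 0.604), and Ccl5 by 0.26. Cx3cr1, the fractalkine receptor of monocytes and macrophages, differed by 0.19 (adjusted p = 0.594).

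Ccl20, the Ccr6 ligand, lay just beyond the threshold. It had 46.1, 52.4, 82.6, 31.7 and 38.7 normalized counts on low salt and 162, 70.4, 107, 72.3 and 53.8 on high salt, a difference of 0.84 ± 0.30 (adjusted p = 0.0525). edgeR (adjusted p = 0.0455) and DESeq2 (0.0225) on the recovered reads called it. The neutrophil chemokine Cxcl6 had 6.06, 3.18, 9.78, 6.33 and 2.52 normalized counts on low salt. On high salt it had 51.2, 26.6, 29.6, 10.7 and 2.56, a difference of 1.56 ± 0.56 (adjusted p = 0.0579 by limma). edgeR (2.09, adjusted p = 0.0112) and DESeq2 (2.11, adjusted p = 0.00435) called it with all rats. High-salt rat 5 lay within the low-salt range, and without it the difference was 2.14 (adjusted p = 0.00412). Its receptor Cxcr2 differed by 1.03 ± 0.50 (adjusted p = 0.165). Ccl5 passed without SS high-salt rat 1, which at 56.0 was the lowest of all SS rats against 108 to 306 in the others, and then differed by 0.68 (adjusted p = 0.014). Leaving out the rat that lies against a difference enlarges it, so calls gained in this way, here and below, are no added support.

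Markers of immune cells moved with these members. Of 18 tested T and NK cell markers 14 rose in SS rats on high salt, and their summed normalized count was 1562 to 2271 on low salt and 2462 to 3684 on high salt. The T cell kinase Zap70 rose by 1.26 ± 0.16 and the T cell receptor subunit Cd3e by 0.83 ± 0.22. Of 10 macrophage markers 5 rose (sums 15680 to 26860 and 26560 to 36560), and of 6 dendritic cell markers 3 rose (1473 to 2372 and 1708 to 2795). Of 5 tested B and plasma cell markers 0 rose (sums 138 to 175 and 117 to 239), and of 2 neutrophil markers 0 (84.1 to 127 and 116 to 178). None of these 7 passed at an unadjusted p under 0.05 in limma. Fibroblast markers rose in 6 of 8 cases (11180 to 16750 and 24460 to 37240). The part of these shifts in the chemokine results was not tested.

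Markers of the loop and distal tubule moved the other way, with 6 of 7 tested lower (sums 209100 to 303000 and 91010 to 143000). Of proximal tubule markers 1 of 9 was lower and 0 higher, and of collecting duct markers 1 of 7 was lower and 0 higher. A tubule score, the mean log2 level of tubule markers, was 13.4 to 13.73 in SS rats on low salt and 13.13 to 13.21 on high salt, so diet and score cannot be told apart within SS rats. With the score as a covariate 0 of the 12 rises passed, and Ccl17 (-0.81) changed sign. That fit called few of all genes, 39 higher and 38 lower against 1538 and 1249 in the main fit. With the mitochondrial share as a covariate 1 passed, Ccr6 (1.00, adjusted p = 0.0419), and Ccl17 was at -0.03. Of all 16153 genes 324 rose and 499 fell with that share. Scaling to the library total in place of the deposited factors shifted the all-gene median by 0.38. Then 25 of 41 members were called higher, as were 8767 of 16153 genes. Directions are therefore relative to the deposited scaling. Without both libraries that stood apart, 15 of 41 members and 1903 of 16153 genes rose.

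In rats labelled null, 0 members rose with salt and 1 fell by limma, against 3.06% and 2.45% of all genes. At an unadjusted p under 0.05 there were 5 higher and 3 lower. edgeR gave 0 higher and 1 lower (546 and 410 of all genes), and DESeq2 1 of each (883 and 773 of all genes). The 41 members had a median difference of 0.14. Ccl22, a Ccr4 ligand of dendritic cells and macrophages, had 30.8, 24.3, 28.9, 49.8 and 29.6 normalized counts on low salt and 16.5, 4.65, 15.2, 22.4 and 7.33 on high salt. The groups did not overlap, and it fell by 1.38 ± 0.37 (adjusted p = 0.0335). The call was lost without each of null low-salt rats 1, 3, 4 and 5 and null high-salt rats 2 and 5 (adjusted p = 0.0532 to 0.0865). It was also lost without both libraries that stood apart (adjusted p = 0.0618).

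Of the 12 members that rose in SS rats, limma called none here. Under alternatives Cxcr4 was called higher in the compared groups alone (0.39, adjusted p = 0.0354), and Ccr6 lower with the mitochondrial share as a covariate (-0.68, adjusted p = 0.0464). Ccr6 went from 38.6, 43.9, 58.7, 66.7 and 37.3 to 32.0, 32.6, 33.3, 34.3 and 37.7, a difference of -0.48 ± 0.20 (adjusted p = 0.155). Of the 5 high-salt rats 4 lay below the low-salt range. Cxcr6 differed by 0.49 ± 0.22 (adjusted p = 0.192), Cxcr4 by 0.39 ± 0.18 (adjusted p = 0.186) and Cxcr3 by 0.19 ± 0.15 (adjusted p = 0.48). Ccr7 differed by -0.56 ± 0.30 and Ccl19 by -0.39 ± 0.21 (adjusted p = 0.275 and 0.268). Ccl5, a T cell ligand, was 151 to 225 on low salt and 249 to 328 on high salt without overlap, but its 0.68 ± 0.31 did not pass (adjusted p = 0.185). Without SS high-salt rat 1, which enters through the shared spread, Ccl5 passed (adjusted p = 0.0187), as did Ccl24 at 0.60 (adjusted p = 0.0331). Of the T and NK cell markers 1 of 18 rose in these rats, with sums of 2141 to 2423 and 2384 to 2669.

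On low salt, rats labelled null and SS rats differed in 0 of 41 members by limma, against 0.452% of all genes higher and 0.105% lower. At an unadjusted p under 0.05 there were 4 members, all higher. Over all genes edgeR called 50 higher and 13 lower, and DESeq2 359 and 196. Of the members edgeR called 0 and DESeq2 1. That 1 was Ccl3, a chemokine of macrophages and T cells that binds Ccr1. It had 78.1, 85, 98.9, 110 and 131 normalized counts in rats labelled null and 49.7, 41.3, 51.1, 66.5 and 87.4 in SS rats. The difference was 0.78 ± 0.20 (adjusted p = 0.0654), and adjusted p = 0.0231 by DESeq2. It passed in limma without SS low-salt rat 4 or 5 or SS high-salt rat 1 (adjusted p = 0.0288 to 0.0468). Under total scaling 7 of 41 members were higher, as were 4053 of 16153 genes, with the median of all genes moved by 0.26.

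On high salt, 2 members were higher and 4 lower in rats labelled null than in SS rats, against 3.7% and 4.82% of all genes by limma. edgeR called 1 higher and 6 lower (588 and 853 of all genes), and DESeq2 2 and 7 (856 and 1174 of all genes). Ccl3 had 108, 109, 157, 169 and 155 normalized counts in rats labelled null and 48.8, 49.3, 43.9, 64.7 and 58.9 in SS rats. The groups did not overlap, and the difference was 1.36 ± 0.20 (adjusted p = 4.50e-04), a call that leaving out any 1 rat did not end. Ccl4, a related chemokine, had 118, 171, 202, 190 and 186 against 35.7, 107, 51.6, 146 and 137. It was higher by 1.03 ± 0.30 (adjusted p = 0.0356). That call was lost without each of SS high-salt rats 1 and 3 and null high-salt rats 2 to 5 (adjusted p = 0.0671 to 0.114) and without both libraries that stood apart (adjusted p = 0.0777). A fit of the compared groups alone (adjusted p = 0.0858) and edgeR (0.0553) did not call it either.

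The 4 that were lower in rats labelled null all belonged to the 12 that rose with salt in SS rats, and the SS high-salt libraries enter both comparisons. Ccr6 was at 32.0 to 37.7 against 88.4 to 145 in SS rats (-1.82 ± 0.20, adjusted p = 3.70e-05). Ccr7 had 14.3, 30.7, 27.0, 29.0 and 38.7 against 46.1 to 97.6 (-1.29 ± 0.30, adjusted p = 0.0137). Its ligand Ccl19 had 298, 310, 316, 298 and 353 against 362 to 1002 (-0.91 ± 0.21, adjusted p = 0.0108). Ccl17 had 13.2, 18.6, 6.93, 9.24 and 14.7 against 29.5 to 52.5 (-1.71 ± 0.44, adjusted p = 0.0198), and was lost without SS high-salt rat 1 (adjusted p = 0.0504) or null high-salt rat 4 (0.0503). In all 4 the groups did not overlap, and neither did those of Ccl12, which was not called (adjusted p = 0.124). How many of all genes lacked overlap was not counted. With the tubule score as a covariate Ccr6 (adjusted p = 0.00176) and Ccl3 (0.00344) passed and the other 4 did not, and with the mitochondrial share all 6 passed. Among other receptors that rose in SS rats, limma did not call Cxcr3 at -0.41 ± 0.15 (adjusted p = 0.0883), Cxcr6 at -0.53 ± 0.22 (0.131) or Cxcr4 at -0.27 ± 0.18 (0.342). DESeq2 called Cxcr3 lower (adjusted p = 0.032), and both count tests called Ccr3 lower (adjusted p = 0.0382 by edgeR and 0.0184 by DESeq2). Without SS high-salt rat 5 Cxcr4 passed in limma (-0.48, adjusted p = 0.0198), and so did Cxcl6 (-2.24, adjusted p = 0.00654). With all rats Cxcl6 was called lower by edgeR (-2.30, adjusted p = 0.0136) and DESeq2 (-2.32, adjusted p = 0.00315). Of the T and NK cell markers 5 of 18 were lower (sums 2384 to 2669 against 2462 to 3684), and of the macrophage markers 2 of 10 were lower and 1 higher.

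Ccl3 and Ccl4 lie on chromosome 10, as does the targeted gene Ccl2. In the GRCr8 annotation 7 members lie within 2 Mb of Ccl2, in the order Ccl12, Ccl1, Ccl5, Ccl9, Ccl6, Ccl3 and Ccl4. Nearest to Ccl2, Ccl12, a monocyte chemokine in mice, differed by -0.80 ± 0.33 between genotypes on high salt (adjusted p = 0.124), with 6.61 to 8.37 normalized counts in rats labelled null and 8.60 to 29.0 in SS rats. Ccl1, a ligand of Ccr8, differed by -0.89 ± 0.67 (adjusted p = 0.41). Farther along, Ccl5 differed by 0.71 ± 0.31, Ccl9 by 0.73 ± 0.51 and Ccl6 by -0.34 ± 0.19, none past the threshold. Ccl3 and Ccl6 overlap a non-coding gene of the annotation, and reads of the overlap cannot be told apart.

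**Figure D3:**
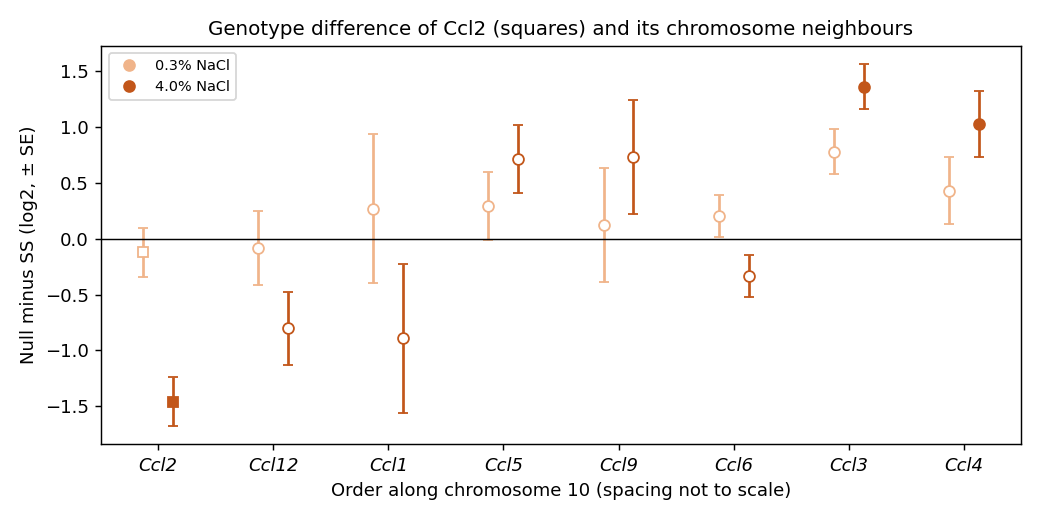
Difference between rats labelled null and SS rats on 0.3% NaCl (light) and 4.0% NaCl (dark) for Ccl2 and the 7 members near it on chromosome 10, on the log2(normalized count + 1) scale with its standard error. Filled symbols have an adjusted p under 0.05. Ccl2 lies at -1.46 on high salt, and Ccl3 and Ccl4 at 1.36 and 1.03.

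The interaction, the salt effect in rats labelled null minus that in SS rats, tests whether the genotypes responded differently. It was below 0 for 3 members and above 0 for 0 at the threshold by limma, against 1.76% and 0.774% of all genes. At an unadjusted p under 0.05 there were 10 below 0 and 0 above, with the share of all genes not counted. edgeR and DESeq2 called 4 and 5 members below 0 and 0 above. Of all genes they called 325 and 541 below 0 and 114 and 294 above. The 3 were Ccr6 (-1.95 ± 0.29, adjusted p = 0.00208), Ccl19 (-1.21 ± 0.29, adjusted p = 0.0298) and Ccr7 (-1.62 ± 0.43, adjusted p = 0.045). All 3 had a salt effect above 0 in SS rats and a value below 0 in rats labelled null. Cxcr3 lay at the threshold (-0.77 ± 0.21, adjusted p = 0.0508), and edgeR (adjusted p = 0.0474) and DESeq2 (0.0127) called it. Cxcr6 (-1.02 ± 0.32, adjusted p = 0.0865), Ccl17 (-1.57 ± 0.62, 0.179), Ccr3 (-2.02 ± 0.82, 0.193) and Ackr1 (-1.34 ± 0.63, 0.271) did not pass in limma, and DESeq2 called Cxcr6 (-0.99, adjusted p = 0.0327). For Cxcr4 (-0.38 ± 0.25), Ccl6 (-0.54 ± 0.27) and Cx3cl1 (-0.17 ± 0.20) the test did not separate the genotypes either. Of the T and NK cell markers 4 of 18 were lower in the interaction.

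The Ccr6 interaction passed without any 1 rat and with the mitochondrial share as a covariate (-1.68, adjusted p = 0.0108), and not with the tubule score (-1.66, adjusted p = 0.118). With that score 0 of all genes passed above 0 and 2 below. Ccl19 was lost without null low-salt rat 4 or null high-salt rat 1 or 4 (adjusted p = 0.0511 to 0.0557). Ccr7 was lost without each of SS low-salt rats 1 and 2, SS high-salt rats 1 to 3, null low-salt rats 2, 4 and 5 and null high-salt rats 1 to 4 (adjusted p = 0.0573 to 0.0922). The count of 3 became 1 without both libraries that stood apart, 1 without null low-salt rat 4 or null high-salt rat 1 or 4, 5 without SS low-salt rat 4 and 6 without SS high-salt rat 5. Without SS high-salt rat 5 the calls gained were Cxcr3 (-0.82), Cxcr6 (-1.14) and Cxcl6 (-2.36). The Ccl2 interaction, from the axis set aside here, was -1.34 ± 0.31.

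Rats of a group differed among themselves in a way that ran through many members. Of the 41 members, 22 were lowest in SS low-salt rat 2 and 0 were highest in it. That library had the largest mitochondrial share, 42.5% of reads. In SS rats on high salt, 14 members were lowest in rat 1 and 15 highest in rat 2. Of the 12 members that rose with salt, 6 were highest in rat 2 and 5 in rat 3, and 6 were lowest in rat 5, whose mitochondrial share of 20.4% was the highest of that group. SS high-salt rat 1 had low Ccl4 and Ccl5 (35.7 and 56.0) beside the highest Ccr7 and Ccl20 (97.6 and 162) of its group. The mean was highest in the SS high-salt group for 23 of the 41 members, in the null high-salt group for 11, in the null low-salt group for 5 and in the SS low-salt group for 2. Ranks of rats and groups were counted for the members only, so whether other genes share them was not tested.

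**Figure D4:**
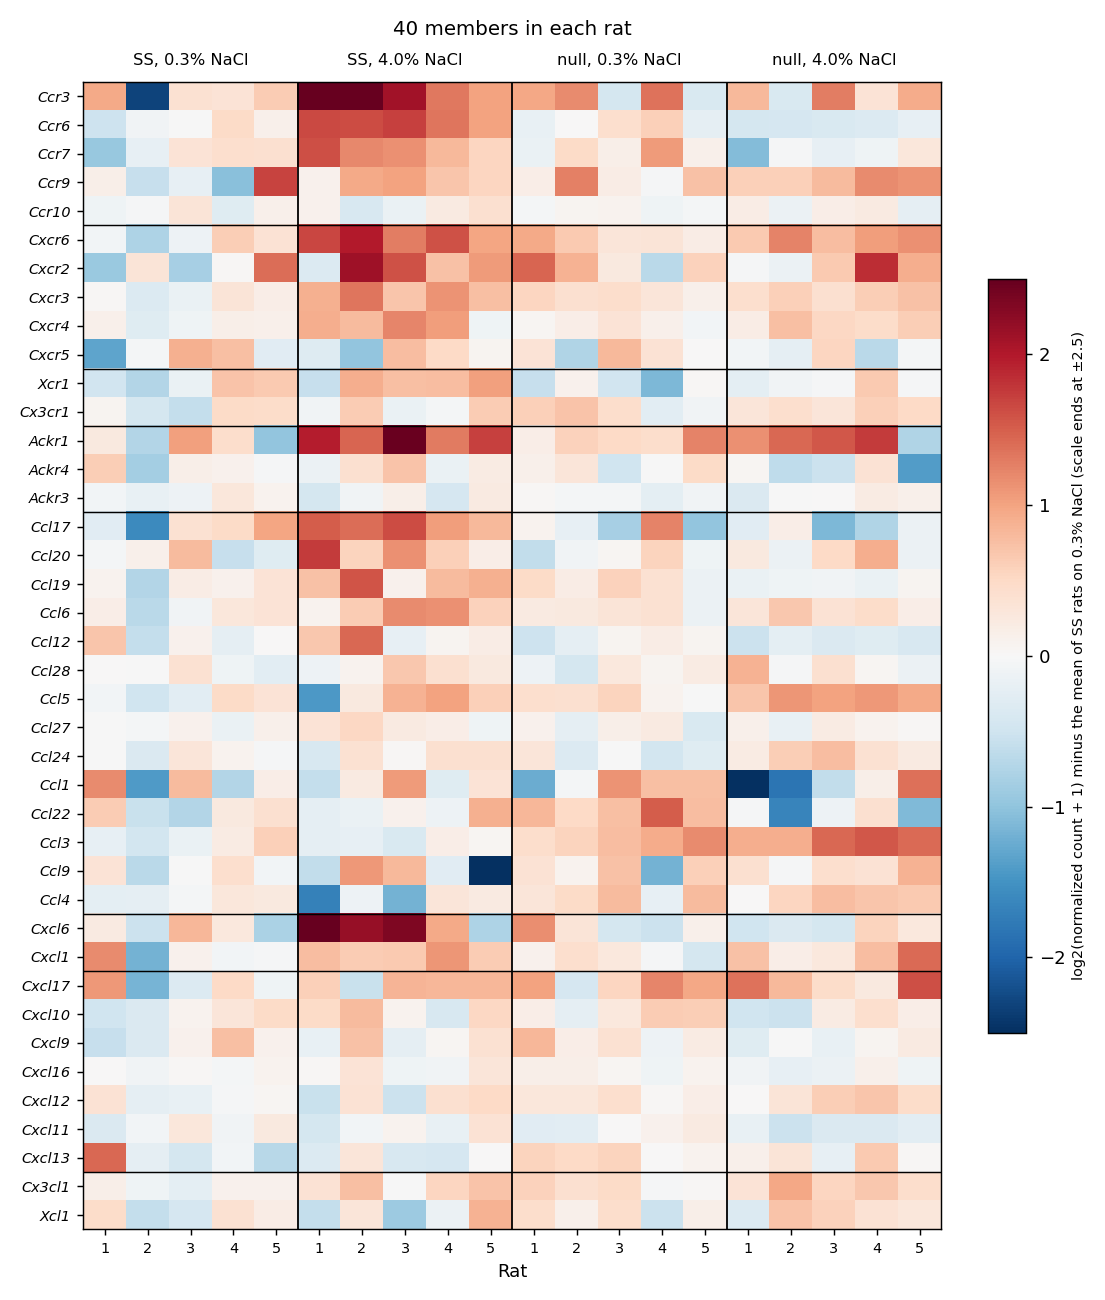
Level of 40 members in each of 20 rats, as log2(normalized count + 1) minus the mean of SS rats on 0.3% NaCl, with red above and blue below that mean. Horizontal lines part the roles in the order CC, CXC, CX3C or XC and atypical receptors, then the ligands. Red is densest among receptors of SS rats on 4.0% NaCl, and Ccl3 is red in both null-labelled groups.

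Some members without a call had single rats that differed from the rest. Ccr4 did not pass the filter: it had 24 and 28 reads (28.6 and 21.9 normalized counts) in SS high-salt rats 1 and 2 and 0 to 9 reads in each of the other 18 libraries. The lymphoid follicle chemokine Cxcl13 had 701 normalized counts in SS low-salt rat 1 and 161 to 408 in all other rats, while its receptor Cxcr5 differed by 0.01 ± 0.40 with salt in SS rats. Epithelial ligands Ccl27 and Ccl28 differed by 0.23 and 0.26 with salt in SS rats, and their receptor Ccr10 by 0.04 ± 0.14. Xcr1, the receptor of cross-presenting dendritic cells, and its ligand Xcl1 differed by 0.58 and -0.10 (adjusted p = 0.226 and 0.87). Without SS high-salt rat 1, the lowest of its group at 40.5, Xcr1 passed (0.87, adjusted p = 0.0376).

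Genes that act downstream of chemokine receptors were counted from a list of signalling components. With salt in SS rats 11 of 72 tested genes rose (15.3%, against 9.52% of all genes) and 3 fell (4.17%, against 7.73%), with a median of 0.01. Those of smallest p included the cyclase Adcy7 (1.298 ± 0.161), the phospholipase Plcb2 (1.14 ± 0.15), the leukocyte PI3-kinase subunit Pik3cd (0.88 ± 0.13), the G protein regulator Rgs16 (1.00 ± 0.18) and the arrestin Arrb2 (0.44 ± 0.09). In rats labelled null 0 of 72 passed with salt by limma, with 7 higher and 5 lower at an unadjusted p under 0.05. Between genotypes on low salt Adcy7 (0.78 ± 0.16) and Pik3cd (0.56 ± 0.13) were higher in rats labelled null. On high salt Plcb2 was lower (-0.64 ± 0.15) and the kinase Rock2 (0.42 ± 0.10) was higher. The interaction was below 0 for Plcb2 (-1.07 ± 0.21), Adcy7 (-1.07 ± 0.23), Rgs16 (-1.05 ± 0.26) and Pik3cd (-0.72 ± 0.18).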

How the data were processed

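Poly A RNA from microvessels dissected out of the kidney was sequenced for 20 rats, 5 a group, per the labels. The submitters' processing notes name, without role or order, STAR 2.7.11b, featureCounts 2.0.6 from Subread, Trim Galore, MultiQC, DESeq2 1.44 and the build mRatBN7.2. No settings are stated in the labels. The authors deposited a signal for each gene and library that behaves as a read count divided by a factor of the library, called a normalized count here. Dividing by the value of 1 read left whole numbers, within 1e-06, in 100% of cases. The recovered reads come to 22000000 to 47900000 a library. All listed genes sum to 100 reads or more, so rarer transcripts could not be assessed.

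Each gene was tested with limma 3.58.1 in R 4.3.3 on log2(normalized count + 1), which understates changes of rare transcripts. The filter kept a gene with a value of 10 or more in 5 or more libraries, which left 16153 of 16672. All 20 libraries entered 1 fit of 4 group means. Within each of 5 comparisons the Benjamini-Hochberg adjustment ran over every tested gene, with a threshold of 0.05. Adjusted p-values are limma's unless edgeR or DESeq2 is named, and errors after ± are standard errors. On recovered reads, edgeR 4.0.16 called 1637 genes higher and 1156 lower with salt in SS rats, and DESeq2 1.42.0 called 1818 and 1518, against 1538 and 1249 by limma. The fit was tested on simulated data, with counts drawn independently for each gene. They held no tubule or mitochondrial shift between libraries, so that test does not bear on such shifts. The labels number the rats, and nothing in them says that a number marks a shared litter or day. In the main fit a p-value sets a difference against the spread between rats. That spread is estimated over all 4 groups and drawn towards that of other genes.

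The members, the marker and signalling lists and the tests were chosen with earlier results of these data known. Members past the threshold in any comparison are named with their test, and the 12 of smallest adjusted p with each rat's value. Other members are named where they pair with a named one, and the few without a call singled out for a single rat's value, such as Ccr4 and Cxcl13, were chosen after their values were seen. A member that rose and some signalling genes enter the counts but are not reported by name here or plotted. In GRCr8, 42 of 42 names matched RefSeq. Alternatives tried were a pseudocount of 0.5 or 8, no filter or one of 100, other scalings, library weights, the compared groups alone, a replicate block, 2 covariates, the count tests, each rat left out and both libraries that stood apart left out.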

Additional observations from a re-analysis of the deposited data

Results flagged for a closer look

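Among 164 sets of 5 rats (41 members in 4 groups), 6 held a rat far from the others of its group by Dixon's test on the log2 scale, 3.66% of them, where chance gives about 1 in 20. Ackr1 was at 3.14 normalized counts in null high-salt rat 5, against 14.3 to 22.4 in the other 4. Ccl19 was at 202 in SS low-salt rat 2, against 354 to 426. Ccr3 was at 0 in SS low-salt rat 2, against 5.28 to 8.49. Cxcl17, a mucosal chemokine, was at 10.2 in SS high-salt rat 2, against 23.8 to 28.7. Xcr1 was at 40.5 in SS high-salt rat 1, against 104 to 126, and at 96.3 in null high-salt rat 4, against 51.8 to 59.7.

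The salt effect differed between the genotypes by the interaction test in limma for Ccr6 (-1.95 on the log2 scale), Ccr7 (-1.62) and Ccl19 (-1.21). For each of these, 4 or 5 of the 5 SS rats on high salt were above all SS rats on low salt.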

How the results depend on the processing

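The counts of changed members were recomputed under each alternative. For salt in SS rats the 12 became 7 with the filter of 100, which tests fewer members, 25 with total scaling, 1 with the mitochondrial share and 0 with the tubule score as a covariate. With the tubule score Ccl17 turned to -0.809, and with the mitochondrial share Ccl17 to -0.03. For salt in rats labelled null the 1 became 4 in the compared groups alone and with library weights, 2 with DESeq2 and total scaling, and 0 with the filter of 100. For null against SS on low salt the 0 became 1 with DESeq2, the replicate block and total scaling without mitochondrial genes, and 7 with total scaling. On high salt the 6 became 3 with the filter of 100, 2 with the tubule score, 7 with edgeR, 8 with a pseudocount of 8 and 9 with DESeq2. For the interaction the 3 became 5 with DESeq2, 6 with total scaling, 0 with the tubule score, and 1 with the filter of 100, the mitochondrial share, the replicate block or both libraries that stood apart left out. Over all genes the tubule score left 39 higher and 38 lower for salt in SS rats, and 0 and 2 for the interaction. Total scaling called 8767 of 16153 genes higher for salt in SS rats and 4053 for the genotypes on low salt. For the interaction it called 1053 below 0. Causes were not tested beyond these fits.

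Leaving out 1 rat gave 9 to 13 changed members for salt in SS rats, 0 to 3 for salt in rats labelled null, 0 to 1 for the genotypes on low salt, 4 to 8 on high salt and 1 to 6 for the interaction. Correlations of same-numbered rats were small (r = -0.159 to 0.135 over 5 pairs in each comparison), so the numbers were not taken as pairs. For salt in SS rats 2 of 5 pairs were over 0.1, and in each other comparison 0. With the replicate block the counts were 10, 1, 1, 6 and 1 in the order of the comparisons, and the interaction of Ccl19 (adjusted p = 0.0601) and Ccr7 (0.0565) did not pass. Each rat's best correlation was counted from both sides of the 5 pairs. It fell on the own number in 4 cases for salt in SS rats and 2 for salt in rats labelled null. For each genotype comparison there were 0 such cases. Members with few reads, such as Ccr3, Ackr1, Cxcl6 and Ccr4, are limited by depth.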
